A study of Mus musculus with 6 samples.

Results

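Keratins are the intermediate filament proteins of epithelial cells and of hair. Type I (acidic) and type II (basic) keratins assemble only as heteropolymers of both types, so a filament needs a partner from each. Krt8 and Krt18 are the pair of simple epithelia and the first keratins of the embryo, while other pairs mark stratified epithelia, the sheaths around the hair root, or the hair shaft. In the mouse the genes stand in a mostly type I cluster on chromosome 11 and a mostly type II cluster on chromosome 15. Ring1 and Rnf2 encode the alternative E3 ligases of Polycomb repressive complex 1 (PRC1), which ubiquitinates histone H2A and is known for keeping genes of other lineages silent.

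The members were chosen by symbol as the protein-coding mouse genes named Krt followed by a number. They were 53 of the 24421 genes in the count table, 28 of type I and 25 of type II. By the epithelium each is known from, 5 were simple, 22 epidermal and mucosal, 8 root sheath and 16 hair keratins, and Krt222 and Krt90 were placed in none of these. No count entered the choice of symbols, but the family was proposed with differences between DKO and SKO oocytes known. Its fold changes and adjusted p values are therefore a description, and no count over the family supports anything here. Krt74, a transcribed pseudogene in this annotation, was left out by the rule. It had 13, 39 and 26 counts in DKO 1, 2 and 3, against 1, 0 and 0 counts in SKO 1, 2 and 3, in the midst of the type II root sheath genes.

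RNA-seq was done on germinal vesicle (GV) oocytes, the fully grown oocytes arrested before meiosis resumes. DKO oocytes came from 3 Ring1 -/-; Rnf2 f/f; Zp3-cre females and SKO oocytes from 3 Ring1 -/-; Rnf2 f/f females without the transgene, all about 3 months old, on a mixed FVB, 129/Sv and C57BL/6J background. Each library held 15 oocytes of a single mouse, freed of granulosa cells by pipetting. Ring1 was thus absent by genotype from both groups, and the comparison addresses the oocyte deletion of Rnf2 by Zp3-cre, which is active in growing oocytes. Only DKO mice carried the transgene, and an effect of cre itself and one of the deletion cannot be told apart.

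Libraries held 15521975 to 26652745 counts. Values are counts, or CPM (counts divided by TMM-scaled library sizes), with the mean ± SD over 3 mice. Rnf2 (chr1:151469398-151500991, GRCm38) had 989, 654 and 589 counts in DKO 1, 2 and 3, against 5041, 3901 and 4563 counts in SKO 1, 2 and 3. Its log2 fold change, DKO over SKO throughout, was -2.38 (SE 0.30, edgeR quasi-likelihood adjusted p = 0.000349). Ring1, with 19 counts in all in DKO oocytes and 10 in SKO oocytes, was under the count filter. Over all genes, 2567 of 14845 tested were called higher in DKO oocytes (17.3%) and 1100 lower (7.41%) at an adjusted p under 0.05, with a median log2 fold change of 0.04.

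The libraries were those of oocytes in both groups, with other ovarian markers present at far lower sums. The 12 oocyte markers summed to between 12482 and 16708 CPM in DKO oocytes, against 21880 to 23385 CPM in SKO oocytes. In edgeR 6 were called lower and 0 higher. All 12 passed the count filter in every SKO library, and 8.65% of all such genes were called lower and 11.9% higher. Of the 6 called lower, Zp1, Zp2 and Zp3 lost their calls without any 1 of the SKO libraries. Zp1 also lost it without DKO 1 or DKO 3 and with library totals alone, and Zp2 without DKO 1 or DKO 2. The most abundant oocyte markers were Gdf9, Bmp15 and Zp3. They had 3997 ± 1480, 2242 ± 151 and 1409 ± 347 CPM in DKO oocytes, against 5658 ± 648, 3585 ± 65.9 and 2308 ± 67.7 CPM in SKO oocytes (SD, n = 3 each). Of 20 granulosa and cumulus markers, 16 were tested, 8 called higher and 1 lower, beside 17.3% and 7.41% of all genes. Of the 9 that passed the filter in every SKO library, 6 were called higher and 1 lower, beside 11.9% and 8.65% of all such genes. Of the 7 that did not, 2 were called higher (Bex1 and Wt1), beside 49% of all such genes. The list summed to 317 to 354 CPM in DKO oocytes, against 126 to 156 CPM in SKO oocytes. Nr5a2, Ptgs2 and Cyp11a1 led it with 117, 87.1 and 36.9 CPM in DKO oocytes, against 79.2, 3.80 and 14.6 CPM in SKO oocytes. Fshr, the follicle-stimulating hormone receptor of granulosa cells, averaged 30.7 ± 2.54 CPM in DKO oocytes and 0.506 ± 0.0397 CPM in SKO oocytes (log2 fold change 5.91, edgeR adjusted p = 1.35e-06). Bex1 (7.66), Wt1 (3.46), Has2 (2.23) and Inhba (2.01) were called higher too, the last 2 not without some single libraries. Cyp19a1, the 1 called lower, averaged 17 CPM in DKO oocytes and 30 CPM in SKO oocytes (-0.82, edgeR adjusted p = 0.0274). Its call was lost with library totals alone and without DKO 1, DKO 2, SKO 1 or SKO 3. Of the other markers of that list, Ptx3 was at 0 in every library, Tnfaip6 had 0 counts in DKO oocytes and 1 count in SKO oocytes, Foxl2 had 26, 39 and 6 counts in DKO oocytes and 7, 0 and 6 in SKO oocytes, and Amh had 11, 30 and 9 in DKO oocytes and 61, 51 and 2 in SKO oocytes.

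Epithelial cells of the ovary surface also carry keratins, so their markers were read without keratins. Of 11 found, 9 were tested. The 5 called higher were Aldh1a2, Lrrn4, Epcam, Lgr5 and Wt1, and the 2 called lower were Upk3b and Gpm6a. Of the 7 that passed the filter in every SKO library, 3 were called higher and 2 lower, beside 11.9% and 8.65% of all such genes. The 2 that did not, Lgr5 and Wt1, were called higher, beside 49% of all such genes. The list, most of it Cdh1, which was not called, summed to 831 to 1009 CPM in DKO oocytes, against 757 to 894 CPM in SKO oocytes. The sums came mostly from Cdh1 and Aldh1a2, with 513 and 243 CPM in DKO oocytes against 622 and 100 CPM in SKO oocytes, and from Lrrn4, with 62.9 CPM in DKO oocytes against 28.1 CPM in SKO oocytes. Msln, a defining marker of this epithelium, had 0 counts in DKO oocytes and 2 in SKO oocytes, Upk1b had 8 counts in DKO 2 alone, and Upk3b was lower at 0.639 CPM in DKO oocytes against 5.24 CPM in SKO oocytes, while Epcam was higher at 19.0 CPM in DKO oocytes against 0.758 CPM in SKO oocytes. Lgr5 had 394 counts over the DKO libraries, against 43 over the SKO libraries (3.26, edgeR adjusted p = 0.00267). Gpm6a had 36.2 CPM in DKO oocytes against 62.4 CPM in SKO oocytes, a call lost without SKO 3 and with library totals alone. Of 15 markers of stroma, theca and endothelium, 11 were tested, 5 called higher and 1 lower. Of the 6 that passed the filter in every SKO library, 2 were called higher and 1 lower, beside 11.9% and 8.65% of all such genes. Of the 5 that did not, 3 were called higher (Col1a1, Dcn and Lum), beside 49% of all such genes. The 15 summed to 117 to 140 CPM in DKO oocytes and 122 to 161 CPM in SKO oocytes. Pecam1, Tek and Kdr led at 61.0, 32.8 and 11.6 CPM in DKO oocytes against 110, 25.5 and 3.68 CPM in SKO oocytes. Pecam1 was lower, a call lost without SKO 3, and made up most of the SKO sums, while the stromal markers Col1a1, Dcn, Pdgfra and Lum were called higher. They had 85, 224, 321 and 50 counts in all in DKO oocytes, against 5, 37, 55 and 0 in SKO oocytes. The other stromal and theca markers of the list were mixed. Acta2, Tagln and Star were not called, with log2 fold changes of 1.32, 0.53 and -0.06. Col1a2, the partner chain of Col1a1, was under the filter with 0 counts in DKO oocytes and 4 in SKO oocytes. Cyp17a1 (5 in DKO oocytes, 16 in SKO oocytes) and Col3a1 (19 in DKO oocytes, 0 in SKO oocytes) were under it too. Of 12 blood and immune markers, 3 were tested and none of these was called in edgeR, while 9 were under the filter. The list summed to 9.28 to 19.2 CPM in DKO oocytes and 11.7 to 16.7 CPM in SKO oocytes, led by Laptm5, Cd68 and Alas2. The part of other cells in the keratin results was not tested. In pooled oocytes, fewer cells with a transcript and less transcript per cell cannot be told apart.

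Keratin transcripts were more abundant in DKO oocytes, and the rise lay in a few genes. Counts were found for 44 of the 53 keratins, and 19 passed the filter on low counts and were tested. Of the 19, 9 were called higher in DKO oocytes: Krt79, Krt73, Krt71, Krt8, Krt76, Krt27, Krt25, Krt222 and Krt72. None of the 19 was called lower in edgeR, although 1 (Krt12) had an unadjusted p under 0.05 and was the only one called lower by DESeq2. The median log2 fold change of the 19 was 1.20, with a range of -0.61 to 7.81. A keratin that is high only in DKO oocytes could enter the test through those libraries alone. Of the 12 keratins that also passed in every SKO library, 5 were called higher and 0 lower, where 11.9% of the 12700 such genes in the table were called higher and 8.65% lower. Of the 7 others, 4 were called higher, near the 49% of 2145 genes that likewise did not pass in every SKO library. These 4 were Krt79, Krt8, Krt27 and Krt222.

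**Figure D1:**
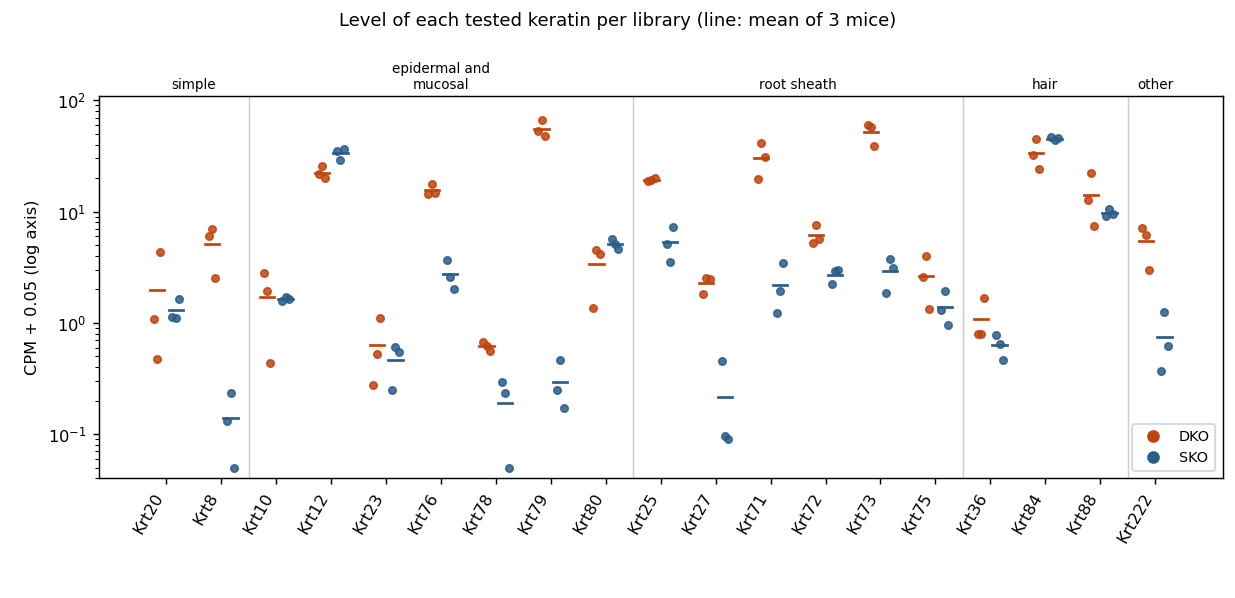
CPM plus 0.05 on a log axis for the 19 tested keratins in the 3 DKO libraries (orange, left of each pair) and the 3 SKO libraries (blue), grouped by class, with a line at the mean. Krt79, Krt8, Krt73 and Krt71 lie far above their SKO values in every DKO library, while Krt12 and Krt84 average higher in SKO oocytes.

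The type II root sheath keratins Krt71, Krt72 and Krt73 form the inner root sheath of the hair follicle with the type I keratins Krt25 to Krt28. Of the 8 root sheath keratins in the table, 6 were tested and 5 called higher, beside 17.3% of all genes. Of the 5 that passed the filter in all SKO libraries, 4 were called higher, beside 11.9% of all such genes. The 1 other, Krt27, was called too, beside 49% of all such genes. Summed per kilobase of gene length, they reached 53.5, 65.2 and 50.6 CPM per kilobase in DKO 1, 2 and 3, against 6.60, 7.18 and 9.52 CPM per kilobase in SKO 1, 2 and 3. Every DKO library was thus above every SKO library for this class. The type II members summed to 42.9 ± 7.96 CPM per kilobase in DKO oocytes and 4.44 ± 1.12 in SKO oocytes, and the type I members to 13.5 ± 0.737 in DKO oocytes and 3.33 ± 1.11 in SKO oocytes (SD, n = 3 each).

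Krt73 (chr15:101793304-101802360) had 1049, 1228 and 1002 counts in DKO 1, 2 and 3, against 45, 80 and 75 counts in SKO 1, 2 and 3. It averaged 52.1 ± 11.5 CPM in DKO oocytes and 2.86 ± 0.956 CPM in SKO oocytes, a log2 fold change of 4.19 (SE 0.33, edgeR adjusted p = 1.65e-05). Its neighbour Krt71 (chr15:101733949-101743097) had 340, 878 and 798 counts in DKO oocytes, against 29, 41 and 83 counts in SKO oocytes. Krt71 was lowest in DKO 1, which still held more of it than any SKO library. Its mean was 30.5 ± 10.9 CPM in DKO oocytes and 2.16 ± 1.15 CPM in SKO oocytes, a log2 fold change of 3.82 (SE 0.44, edgeR adjusted p = 0.000203). The promoters of both are shown because these are the most strongly raised root sheath genes. Here and below, promoter windows run from 250 bases before to 50 after the RefSeq start on GRCm38.p6, 5′ to 3′ on the gene's strand, and capitals mark CG dinucleotides and the TATA box letters TATAAA. The windows are chr15:101802311-101802610 for Krt73 and chr15:101743048-101743347 for Krt71, both on the minus strand.
Krt73: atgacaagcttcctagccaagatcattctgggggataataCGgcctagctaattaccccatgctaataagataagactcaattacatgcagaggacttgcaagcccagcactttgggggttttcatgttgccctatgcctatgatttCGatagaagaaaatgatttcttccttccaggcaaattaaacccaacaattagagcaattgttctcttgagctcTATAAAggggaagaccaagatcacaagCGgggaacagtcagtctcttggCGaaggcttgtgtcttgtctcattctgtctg
Krt71: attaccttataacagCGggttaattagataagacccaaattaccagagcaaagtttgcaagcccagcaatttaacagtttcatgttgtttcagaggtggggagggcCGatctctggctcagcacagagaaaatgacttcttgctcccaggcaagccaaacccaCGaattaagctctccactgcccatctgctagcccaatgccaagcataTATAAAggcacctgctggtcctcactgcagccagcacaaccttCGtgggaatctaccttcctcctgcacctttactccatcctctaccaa
Both hold 4 CG dinucleotides and a TATAAA, which begins 30 bases before the start in Krt73 and 40 before it in Krt71.

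Krt72 (chr15:101776172-101786520), between these genes, had 91, 161 and 146 counts in DKO oocytes, against 54, 63 and 71 counts in SKO oocytes. Its means of 6.14 ± 1.26 CPM in DKO oocytes and 2.66 ± 0.425 CPM in SKO oocytes gave a log2 fold change of 1.20 (SE 0.36, edgeR adjusted p = 0.0339). The groups did not overlap, but the call was lost without DKO 2 and without each SKO library in turn, with adjusted p up to 0.122. Krt75, the type II keratin of the companion layer beside the inner sheath, had 44, 83 and 33 counts in DKO oocytes and 31, 41 and 22 in SKO oocytes. Its groups overlapped in CPM, and it was not called, with a log2 fold change of 0.92 (SE 0.55, edgeR adjusted p = 0.251).

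On chromosome 11, the type I sheath keratin Krt25 (chr11:99315516-99322951) had 326, 405 and 514 counts in DKO oocytes, against 126, 76 and 175 counts in SKO oocytes. It averaged 19.2 ± 0.709 CPM in DKO oocytes and 5.25 ± 1.85 CPM in SKO oocytes, a log2 fold change of 1.87 (SE 0.31, edgeR adjusted p = 0.00185). Per kilobase it had the highest level of the sheath keratins in SKO oocytes. Krt27 (chr11:99345565-99351118) had 31, 53 and 63 counts in DKO oocytes, against 10, 1 and 1 counts in SKO oocytes. Most of its SKO counts lay in SKO 1, and the log2 fold change of 3.71 (SE 0.82, edgeR adjusted p = 0.00861) became 5.50 without that library. The other sheath members, Krt26 and Krt28, were under the filter, with 15, 6 and 37 counts for Krt26 in DKO oocytes against 6, 1 and 0 in SKO oocytes, and 3, 6 and 3 for Krt28 in DKO oocytes against 1, 0 and 0 in SKO oocytes. Krt222 (chr11:99232761-99244147), a divergent type I keratin at the edge of the same cluster, had 125, 130 and 75 counts in DKO oocytes, against 8, 26 and 14 counts in SKO oocytes. Its log2 fold change was 2.94 (SE 0.59, edgeR adjusted p = 0.00494), and 3.55 without SKO 2, its highest SKO library. Krt27 and Krt222 entered the test only through their DKO libraries.

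Among keratins of stratified epithelia, the calls were few and lay in type II. The 11 type II members summed to 34.7 ± 5.70 CPM per kilobase in DKO oocytes and 2.22 ± 0.537 in SKO oocytes, and the 11 type I members to 13.8 ± 1.62 in DKO oocytes and 19.1 ± 1.87 in SKO oocytes (SD, n = 3 each). The type I sum was mostly Krt12, which was not called, and the difference between the types was not tested. Of the 22, 7 were tested and 2 called higher, both among the 4 tested of type II, beside 17.3% of all genes. Of the 4 that passed the filter in all SKO libraries, 1 was called higher (Krt76), beside 11.9% of all such genes. Of the 3 others, 1 was called higher (Krt79), beside 49% of all such genes. Krt79 (chr15:101929332-101940324), known in the mouse from the hair follicle opening and the sebaceous gland duct, had 928, 1400 and 1228 counts in DKO 1, 2 and 3, against 5, 9 and 3 counts in SKO 1, 2 and 3. That is 55.4 ± 9.31 CPM in DKO oocytes and 0.246 ± 0.151 CPM in SKO oocytes, with no overlap. The log2 fold change of 7.81 (SE 0.39, edgeR adjusted p = 1.35e-06) was the largest of the 19 keratins. Krt79 entered the test only because its DKO libraries passed the filter. Its promoter (chr15:101940275-101940574, minus strand) is shown as that of the keratin with the largest difference.
Krt79: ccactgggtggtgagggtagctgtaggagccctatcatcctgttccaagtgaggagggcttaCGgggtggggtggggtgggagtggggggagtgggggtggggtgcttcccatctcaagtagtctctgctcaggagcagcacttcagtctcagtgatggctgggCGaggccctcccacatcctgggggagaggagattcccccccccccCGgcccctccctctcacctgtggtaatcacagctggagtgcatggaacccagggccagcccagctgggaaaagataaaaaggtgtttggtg
It holds 3 CG dinucleotides and no TATAAA on the gene's strand.

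Krt76 (chr15:101884351-101892920), a type II keratin of the oral mucosa, had 250, 377 and 376 counts in DKO oocytes, against 90, 55 and 48 counts in SKO oocytes. Its log2 fold change was 2.51 (SE 0.33, edgeR adjusted p = 0.000432), on means of 15.5 ± 1.91 CPM in DKO oocytes and 2.71 ± 0.839 CPM in SKO oocytes. Krt78, next to Krt79, had 11, 12 and 13 counts in DKO oocytes and 6, 4 and 0 in SKO oocytes and was not called, with a log2 fold change of 1.95 (SE 0.92, edgeR adjusted p = 0.149). The broadly epithelial Krt80 had 23, 96 and 106 counts in DKO oocytes and 140, 109 and 111 in SKO oocytes and was not called either, with a log2 fold change of -0.61 (SE 0.46).

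The type I keratin Krt12 (chr11:99415664-99422593), known from the cornea, stood out in the other direction. It had 380, 540 and 517 counts in DKO oocytes, against 861, 637 and 879 counts in SKO oocytes. The groups did not overlap at 22.4 ± 2.72 CPM in DKO oocytes and 33.4 ± 3.57 CPM in SKO oocytes, and the log2 fold change was -0.58 (SE 0.21). The edgeR adjusted p of 0.069 missed the threshold, while DESeq2 called it lower with an adjusted p of 0.0266. Krt12 overlaps the long noncoding gene A830036E02Rik, which had 72, 123 and 115 counts in DKO oocytes and 282, 188 and 205 in SKO oocytes, and without known strand handling reads of the overlap cannot be told apart. Krt10, the suprabasal partner of Krt1, had 48, 40 and 10 counts in DKO oocytes and 38, 36 and 39 in SKO oocytes, and Krt23 had 4, 10 and 27 in DKO oocytes and 5, 12 and 12 in SKO oocytes. Neither was called, with log2 fold changes of 0.05 (SE 0.65) and 0.51 (SE 0.76).

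Among simple keratins, Krt8 was higher in DKO oocytes while its usual partner was hardly detected in either group. Krt8 (chr15:101996711-102004342) had 104, 147 and 64 counts in DKO 1, 2 and 3, against 2, 4 and 0 counts in SKO 1, 2 and 3. Its log2 fold change was 5.81 (SE 0.82, edgeR adjusted p = 0.000712), on 5.10 ± 2.32 CPM in DKO oocytes and 0.0882 ± 0.0924 CPM in SKO oocytes. The value moved to 6.78 without SKO 2 and to 5.22 without SKO 3, and Krt8 entered the test only through its DKO libraries. Krt18, the usual type I partner, had 1, 0 and 0 counts in DKO oocytes and 6, 0 and 0 counts in SKO oocytes. Krt19, which also pairs with Krt8, had 0 counts in every library, where the floor of 3 counts corresponds to between 0.113 and 0.193 CPM. Krt20, a type I keratin of gut epithelium, had 18, 9 and 111 counts in DKO oocytes and 27, 23 and 39 in SKO oocytes. Its log2 fold change of 0.63 (SE 0.75, edgeR adjusted p = 0.584) rested on DKO 3 and was -0.80 without it. Krt7, the other type II simple keratin, had 11, 0 and 15 counts in DKO oocytes and 0, 1 and 3 in SKO oocytes. The promoters of Krt8 (chr15:102004293-102004592, minus strand) and Krt18 (chr15:102027966-102028265, plus strand) are shown because these neighbours normally act as a pair and differ here.
Krt8: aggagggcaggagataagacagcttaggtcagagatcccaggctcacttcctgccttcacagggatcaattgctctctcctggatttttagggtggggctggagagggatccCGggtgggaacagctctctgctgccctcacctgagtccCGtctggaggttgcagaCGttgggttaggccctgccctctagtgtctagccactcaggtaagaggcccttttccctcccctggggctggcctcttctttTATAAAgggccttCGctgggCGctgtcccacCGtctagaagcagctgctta
Krt18: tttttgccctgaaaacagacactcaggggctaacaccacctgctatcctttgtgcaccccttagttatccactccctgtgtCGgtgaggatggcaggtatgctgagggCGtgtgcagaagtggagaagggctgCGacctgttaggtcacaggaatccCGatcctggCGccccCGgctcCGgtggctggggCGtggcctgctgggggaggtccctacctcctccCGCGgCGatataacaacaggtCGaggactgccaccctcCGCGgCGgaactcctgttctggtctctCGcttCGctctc
The Krt8 window holds 6 CG dinucleotides and a TATAAA that begins 1 base before the annotated start. The Krt18 window holds 17 CG dinucleotides and no TATAAA.

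Hair shaft keratins were the class without a called member. Of 16 in the table, 3 were tested, and the class sum per kilobase was 27.5, 43.4 and 19.1 CPM in DKO oocytes, against 28.8, 29.1 and 28.6 CPM in SKO oocytes, with overlapping groups. Most of it came from Krt84 and Krt88. Krt84 (chr15:101525026-101532820), a type II hair keratin, had 568, 949 and 615 counts in DKO oocytes and 1150, 949 and 1110 in SKO oocytes, with a log2 fold change of -0.43 (SE 0.24, edgeR adjusted p = 0.222). Without DKO 2, which was level with the SKO libraries, it was -0.69 with an edgeR adjusted p of 0.048. Krt88 (chr15:101447724-101453925), in the same row of type II hair genes, had 222, 474 and 190 counts in DKO oocytes and 225, 229 and 231 in SKO oocytes. Its DKO values lay on both sides of the SKO values, with a log2 fold change of 0.54 (SE 0.37, edgeR adjusted p = 0.327). The type I hair keratin Krt36 had 13, 16 and 42 counts in DKO oocytes and 18, 13 and 10 in SKO oocytes, with a log2 fold change of 0.85 (SE 0.62, edgeR adjusted p = 0.345).

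**Figure D2:**
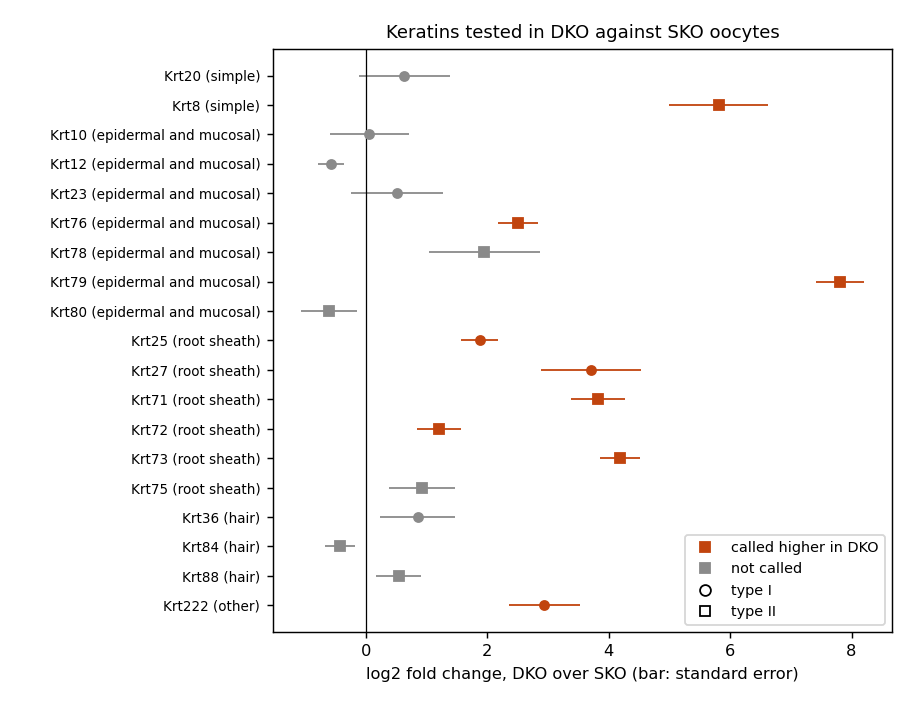
Log2 fold change of each tested keratin, DKO over SKO, with its standard error as a bar; circles are type I, squares type II, and orange marks a call. Orange points occur among simple, stratified and root sheath keratins, from 1.20 for Krt72 to 7.81 for Krt79, and no hair keratin is orange.

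The keratins present in SKO oocytes were thus a short set, and a different order held in DKO oocytes. Per kilobase of gene, the highest levels in DKO oocytes were those of Krt79 (26.4 CPM per kilobase), Krt73 (24.2), Krt88 (15.6), Krt71 (14.0) and Krt84 (13.1). In SKO oocytes they were those of Krt12 (18.0), Krt84 (17.6), Krt88 (10.7), Krt25 (3.18) and Krt72 (1.70), and Krt79 was in place 16 with 0.117. In DKO oocytes Krt79 and Krt73, and in SKO oocytes Krt12 and Krt84, differed by less than the SD of the first of each pair.

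All keratins summed to 265, 335 and 236 CPM in DKO 1, 2 and 3, against 117, 111 and 121 CPM in SKO 1, 2 and 3. The DKO libraries were above every SKO library, with means of 279 ± 50.8 CPM in DKO oocytes and 116 ± 4.65 CPM in SKO oocytes (SD, n = 3 each). A two-sided exact permutation test of this sum gave p = 0.1. That is the smallest value possible with 3 against 3 libraries, so the test could not come under 0.05 and decides nothing. On the per-kilobase scale, type II keratins summed to 103, 139 and 86.5 CPM in DKO oocytes, against 34.2, 36.0 and 35.2 CPM in SKO oocytes. Type I keratins summed to 30.4, 32.2 and 31.0 CPM per kilobase in DKO oocytes, against 24.5, 20.6 and 26.3 in SKO oocytes. The ratio of type II to type I was therefore 3.39, 4.33 and 2.79 in DKO oocytes, against 1.39, 1.75 and 1.34 in SKO oocytes. Transcripts of both types were present in both groups, and type II exceeded type I in each library, further so in every DKO library.

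The make-up of both types differed. Krt79 made up 24.4 ± 1.88% of the type II sum in DKO oocytes and 0.332 ± 0.196% in SKO oocytes, and Krt73 22.3 ± 4.01% in DKO oocytes and 3.76 ± 1.17% in SKO oocytes. Krt84 made up 11.8 ± 0.925% in DKO oocytes and 50.1 ± 2.75% in SKO oocytes, although its own level did not pass the test. Among type I keratins, Krt25 made up 37.3 ± 1.59% of the sum in DKO oocytes and 13.1 ± 3.17% in SKO oocytes, and Krt12 38.6 ± 3.83% in DKO oocytes and 75.7 ± 1.47% in SKO oocytes (SD, n = 3 each).

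**Figure D3:**
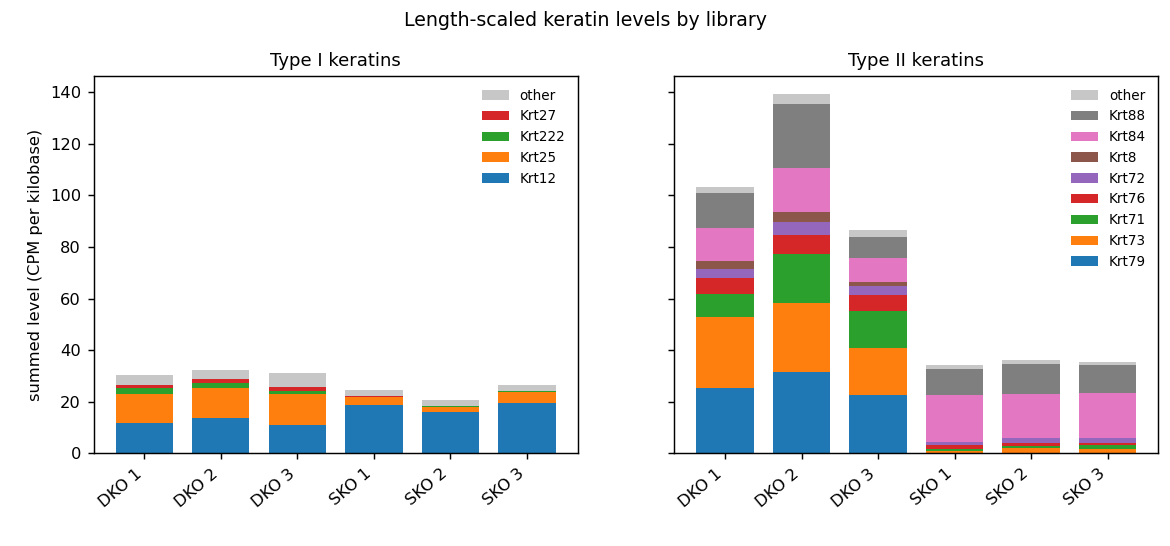
Summed keratin level in CPM per kilobase of gene length in each library, DKO left and SKO right, for type I and type II keratins, stacked by gene. Type II bars reach 86.5 to 139 in DKO oocytes, mostly from Krt79, Krt73, Krt71, Krt88 and Krt84, against 34.2 to 36.0 in SKO oocytes.

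Most keratins were barely detected. Of the 34 under the filter, 9 had 0 counts in every library, among them Krt14 and Krt16, which are abundant in stratified or activated epidermis. Another 10 had 1 to 9 counts, and 15 had 10 or more, with at most 65 in all. The pooled rate was higher in DKO oocytes for 23 of the 25 with counts, and 19 keratins had 0 counts in all SKO libraries, against 9 in all DKO libraries. The like shares over all genes under the filter were not counted, so these counts are no result about keratins. Without a filter, the median log2 fold change of all genes was 0.11, against 0.04 with it. Krt4, a mucosal keratin, had 3, 6 and 22 counts in DKO oocytes and 0 in SKO oocytes, which is at least 11.3-fold higher against a floor of 3 counts over the SKO group. Krt77 had 3, 21 and 16 counts in DKO oocytes and 1, 0 and 0 in SKO oocytes, a pooled ratio of 43.9 with an exact 95% Poisson interval of 7.44 to 1777. Krt4 and Krt77 were both called higher when no filter was applied. Bounds and intervals cover counting error only, since amplified reads are not independent molecules.

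Others of this kind were uneven between mice. Krt24 had 1, 3 and 11 counts and Krt83 had 0, 3 and 9 in DKO oocytes, both with 0 counts in SKO oocytes, which is at least 5.49-fold and 4.39-fold higher. Krt13 had 13, 1 and 6 counts in DKO oocytes and 3, 0 and 0 in SKO oocytes, and Krt35 had 4, 13 and 0 in DKO oocytes and 0, 0 and 1 in SKO oocytes. Krt87 had 0, 10 and 2 counts in DKO oocytes and 0, 0 and 1 in SKO oocytes, and Krt33b had 2, 2 and 12 in DKO oocytes and 3, 0 and 1 in SKO oocytes. No DKO library was the highest for all of these genes. Krt42, Krt82, Krt6a and Krt1 had 13, 5, 14 and 8 counts over the DKO libraries, against 8, 5, 7 and 2 over the SKO libraries. Krt6a and Krt6b, Krt33a and Krt33b, and the hair genes Krt81, Krt83, Krt86 and Krt87 are near-identical copies, so reads may be split between them and their values are uncertain.

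The called genes were not spread evenly along the clusters. On chromosome 15 the 26 keratins span chr15:101348315-102032026, or 684 kb. All 6 called type II genes lay in the stretch from Krt71 to Krt8 (chr15:101733949-102004342). Its 11 keratins summed to 167 ± 29.1 CPM in DKO oocytes and 10.9 ± 1.36 CPM in SKO oocytes (SD, n = 3 each), and 11 of 11 had a higher mean CPM in DKO oocytes. In the adjoining stretch from Krt80 to Krt5, 14 keratins summed to 54.8 ± 20.1 CPM in DKO oocytes and 61.6 ± 1.08 CPM in SKO oocytes, with overlapping groups, 4 tested and 0 called in edgeR. Of its 12 keratins with counts, 9 had a higher and 3 a lower mean CPM in DKO oocytes. On chromosome 11 the 27 keratins span chr11:99232761-100269951, or 1037 kb. The 3 called type I genes lay among the first 6, from Krt222 to Krt28 (chr11:99232761-99374903), with summed levels of 28.1 ± 0.662 CPM in DKO oocytes and 6.23 ± 1.51 CPM in SKO oocytes, and 6 of 6 had a higher mean CPM in DKO oocytes. The remaining 21 keratins, from Krt10 to Krt42, summed to 28.9 ± 1.35 CPM in DKO oocytes and 37.5 ± 3.61 CPM in SKO oocytes, mostly from Krt12, with 5 tested and 0 called in edgeR. Of the 14 with counts, 12 had a higher and 2 a lower mean CPM in DKO oocytes. These stretches were drawn after the calls were seen and carry no test. Over the whole table, 7786 of the 14845 tested genes had a positive log2 fold change. The like share was not counted for genes under the filter, to which some keratins of every stretch belong. The numbers of keratins with a higher mean are thus no result about position.

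**Figure D4:**
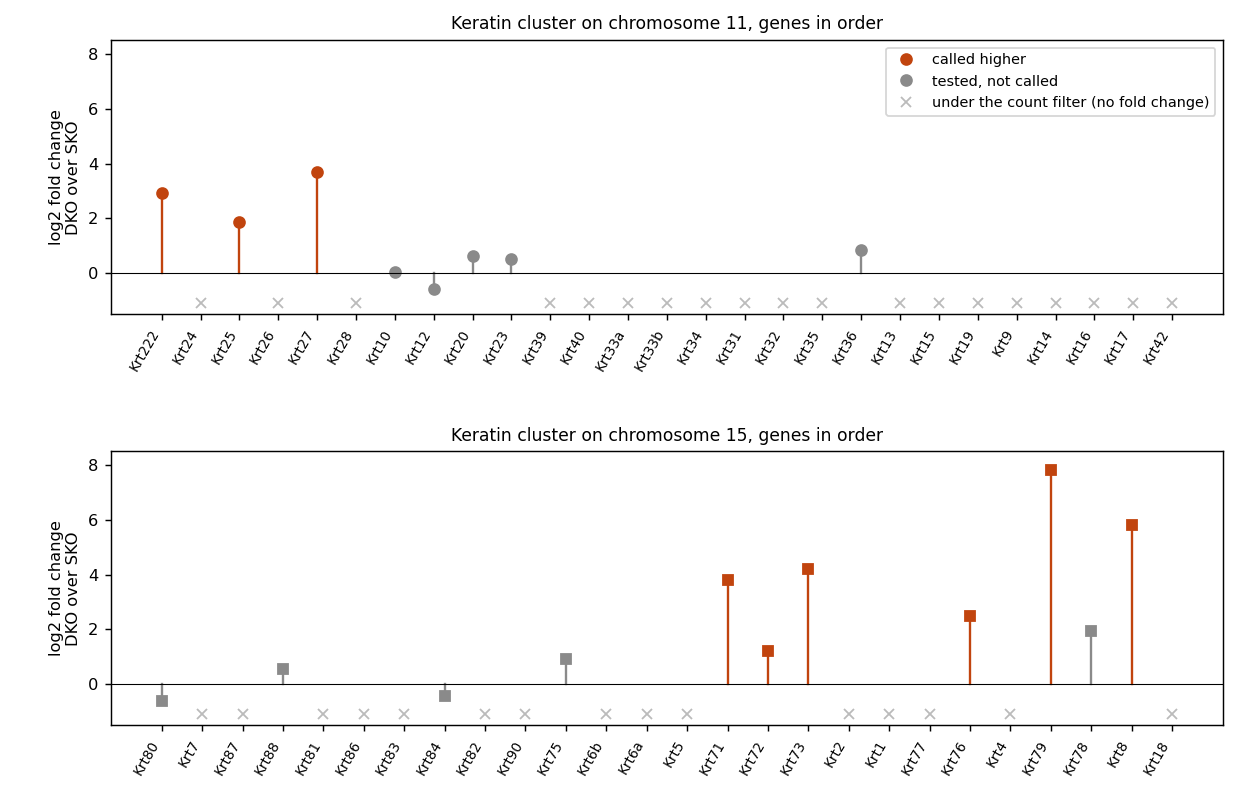
Log2 fold change, DKO over SKO, of the keratins in gene order along the chromosome 11 cluster (circles, type I) and the chromosome 15 cluster (squares, type II, with Krt18 last), with crosses at the foot for genes under the filter. Orange calls occupy the run from Krt222 to Krt27 and the run from Krt71 to Krt8.

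Genes beside and within the clusters were mixed. Keratin-associated proteins form the matrix around hair keratins, and 22 of their genes lie within the chromosome 11 cluster. Of 54 in the table, 12 had counts and 1 was tested, with a log2 fold change of 0.09. Beyond the ends of the chromosome 11 cluster, Smarce1 was not called (0.89, edgeR adjusted p = 0.102), Eif1 and Gast were not called (-0.31 and 0.52), and Hap1 was higher (2.5, edgeR adjusted p = 0.0204), a call lost without DKO 2, DKO 3 or any SKO library. Tns4, before Krt222, was under the filter with 2, 10 and 17 counts in DKO oocytes and 0, 0 and 1 in SKO oocytes, groups that did not overlap. Beyond those of the chromosome 15 cluster, Atg101 (0.07) and Tns2 (-0.15) were not called. Eif4b, a translation initiation factor, was lower at 266 ± 31.6 CPM in DKO oocytes against 405 ± 11.6 CPM in SKO oocytes (-0.61, edgeR adjusted p = 0.0169). Its call was lost without any 1 of the SKO libraries and with library totals alone. Spryd3 was lower too (-0.93, edgeR adjusted p = 0.00989).

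A promoter window was found in the RefSeq table for 36 of the 53 keratins. They held a median of 5 CG dinucleotides, with a range of 2 to 21, against a median of 7 over all 32851 windows of the same length. At least 15 were present in 2 of 36 keratin windows (5.56%), those of Krt7 and Krt18, against 34.6% of all windows. TATAAA on the gene's strand was present in 17 of 36 keratin windows (47.2%), against 8.32% of all windows, and on either strand in 19 (52.8%), against 13.6%. The windows of 8 keratins called higher held 3 to 11 CG dinucleotides and 6 held TATAAA on the gene's strand, 75% of them, against 37.5% of the 8 not called and 40% of the 20 under the filter. In the called Krt25, Krt73 and Krt76 it begins 29 or 30 bases before the start. The called Krt27, Krt71 and Krt8 have it at positions -15, -40 and -1 relative to the start. Among uncalled keratins, Krt12 and Krt20 have it at -29 and Krt10 at -26. Krt26, Krt28, Krt31, Krt32 and Krt40, under the filter, also have one at -29 or -30, so this place was not particular to called genes. The sparse CG of the Krt73 and Krt71 promoters printed above was thus common in the family, whether or not a gene was called. Their TATAAA also occurred in windows of uncalled keratins, but in a larger share of the called ones, a difference that was not tested. A match to these letters is a description of the sequence, not a binding site.

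Proteins that work with keratins were read from 4 lists, chosen with earlier results of these data known. Together they held 78 genes, of which 51 were tested, 20 called higher and 2 lower, beside the 17.3% and 7.41% of all genes given above. Their median log2 fold change was 0.62. Of the 37 that passed the filter in all SKO libraries, 9 were called higher and 1 lower, beside 11.9% and 8.65% of all such genes. Of the 14 others, 11 were called higher, beside 49% of all such genes.

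Desmosomes anchor keratin filaments at cell junctions. Of 22 desmosome and linker genes, 16 were tested, 7 called higher and 0 lower in edgeR, with a median log2 fold change of 0.59. Of the 10 that passed the filter in all SKO libraries, 2 were called, Plec and Ppl, beside the 11.9% of all such genes. The other 5 calls came from the 6 that did not, beside 49% of all such genes. The desmosomal cadherins Dsg1b, Dsc3 and Dsg2 and the linker envoplakin (Evpl) had the smallest adjusted p. Dsg1b had 76, 83 and 59 counts in DKO oocytes, against 0, 1 and 4 in SKO oocytes (log2 fold change 5.53, edgeR adjusted p = 0.00098). Evpl had 33, 60 and 53 counts in DKO oocytes, against 3, 2 and 0 in SKO oocytes (4.89, edgeR adjusted p = 0.00197). Each DKO library was above each SKO library for both. Dsc3 had 207, 187 and 191 counts in DKO oocytes, against 4, 19 and 34 in SKO oocytes (3.52, edgeR adjusted p = 0.00243), and Dsg2 had 116, 38 and 105 counts in DKO oocytes, against 0, 1 and 11 in SKO oocytes (4.58, edgeR adjusted p = 0.0074). Of these, Dsg1b and Dsg2 moved to 6.99 and 7.24 without SKO 3 and to 4.93 and 3.97 without SKO 1, Dsc3 to 4.17 without SKO 3, and Evpl to 5.49 without SKO 1, each still called. Dsg4, Plec and Ppl, also called, lost their calls without 1 or more single libraries. Desmoplakin (Dsp), to which keratins bind directly, was not called at 33.5 ± 8.59 CPM in DKO oocytes and 19.2 ± 6.43 CPM in SKO oocytes (0.80, edgeR adjusted p = 0.0838), and plakoglobin (Jup) had 38.5 ± 15.8 CPM in DKO oocytes and 43.3 ± 5.79 CPM in SKO oocytes.

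Of 18 other intermediate filament genes, 13 were tested, 4 called higher and 1 lower, with a median log2 fold change of 0.65. Of the 10 that passed in all SKO libraries, 2 were called, Nes and Nefh, beside 11.9% of all such genes called higher. Nefm and Nefl were among the 3 that did not, beside 49% of all such genes called higher. The 4 called higher were neuronal or progenitor filaments. Nefm had 143, 48 and 126 counts and Nefl 44, 26 and 46 counts in DKO oocytes, both with 0 counts in every SKO library (edgeR adjusted p = 0.000459 and 0.00118). Against a floor of 3 counts over the SKO group, they were at least 116-fold and 42.4-fold higher. Nestin (Nes) averaged 37.8 ± 10.8 CPM in DKO oocytes and 5.55 ± 2.26 CPM in SKO oocytes (2.77, edgeR adjusted p = 0.000391), and Nefh 57.1 ± 4.26 CPM in DKO oocytes and 24.0 ± 0.444 CPM in SKO oocytes (1.25, edgeR adjusted p = 0.000861). The lens filament gene Bfsp1 was called lower (-4.67, edgeR adjusted p = 0.0248), but SKO 3 did not share the level of its group, with 29, 24 and 44 counts in DKO oocytes and 1358, 1299 and 2 in SKO oocytes. The call was lost without any DKO library, SKO 1 or SKO 2. Vimentin (Vim), the filament of mesenchymal and many somatic cells, had 4, 4 and 11 counts in DKO oocytes, against 0, 1 and 1 in SKO oocytes.

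Of 18 transcription and splicing regulators of epithelia, 16 were tested, 7 called higher and 1 lower, with a median log2 fold change of 0.05. Of the 12 that passed in all SKO libraries, 4 were called higher and 1 lower, beside 11.9% and 8.65% of all such genes. The other 3 higher calls came from the 4 that did not, beside 49% of all such genes. Tfap2a, a regulator of surface ectoderm, had 1940, 1416 and 1676 counts in DKO oocytes, against 164, 142 and 163 in SKO oocytes (3.61, SE 0.26, edgeR adjusted p = 1.10e-05). Klf4, a factor of the epidermal barrier, had 1168, 1913 and 2220 counts in DKO oocytes, against 217, 246 and 265 in SKO oocytes (2.97, SE 0.22, edgeR adjusted p = 1.20e-05). For both, the lowest DKO library was several times the highest SKO library. Elf3 (3.14, edgeR adjusted p = 0.000302), Klf5 (3.96, edgeR adjusted p = 0.000909), Grhl3, Ovol1 and Ovol2 were called higher too, Ovol2 not without DKO 1, DKO 2, SKO 1 or SKO 3. Trp63, the factor of stratified epithelia and of oocyte quality control, averaged 126 ± 12 CPM in DKO oocytes and 122 ± 6.68 CPM in SKO oocytes. Ehf was lower at 213 ± 28.3 CPM in DKO oocytes against 366 ± 26.0 CPM in SKO oocytes (-0.78, edgeR adjusted p = 0.00614).

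Genes of the cornified envelope, the end product of epidermal differentiation, were mostly under the count filter. Of 20 found, 16 had counts, 6 were tested, 2 called higher and 0 lower in edgeR. Of the 5 that passed in all SKO libraries 1 was called, Perp, beside 11.9% of all such genes called higher. Tgm1 did not pass there, and 49% of all such genes were called higher. Perp, a desmosome protein and p53 target, averaged 15.4 ± 1.48 CPM in DKO oocytes and 2.77 ± 0.580 CPM in SKO oocytes (2.47, edgeR adjusted p = 0.000296). The transglutaminase Tgm1 had 36, 62 and 49 counts in DKO oocytes, against 3, 4 and 2 in SKO oocytes (4.10, edgeR adjusted p = 0.00126). Lor, Flg2, Rptn and Sprr1b had 0 counts in every library, and Ivl had 1 count, in SKO 3.

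**Figure D5:**
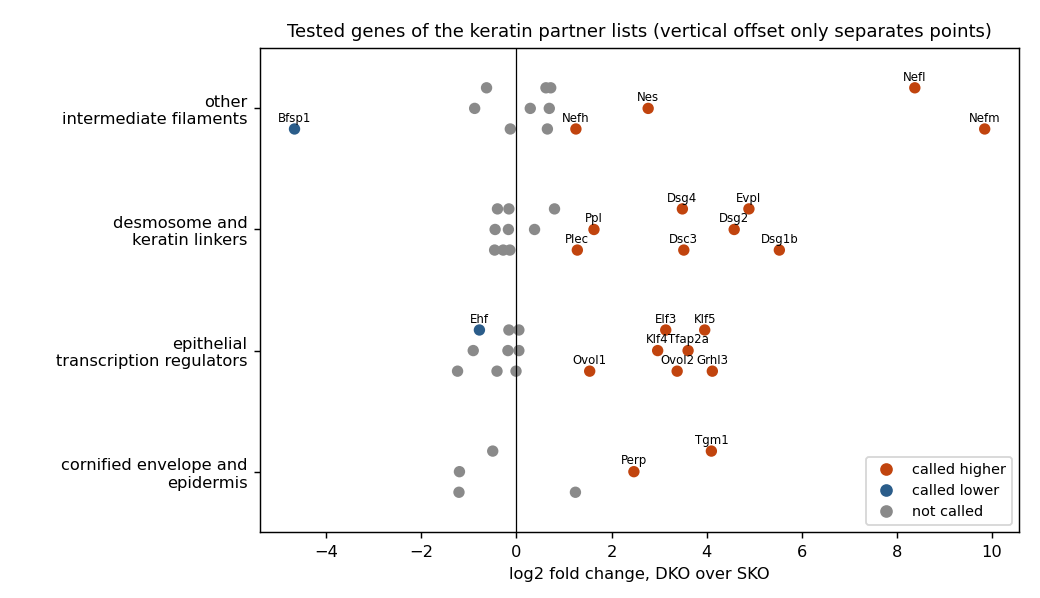
Log2 fold change, DKO over SKO, of the 51 tested genes in the 4 keratin partner lists; orange is called higher, blue called lower and grey not called. The 20 orange points run from 1.25 (Nefh) to 9.85 (Nefm, a fitted value against 0 SKO counts and no bound), and the blue points are Bfsp1 and Ehf.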

How the data were processed

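Gene expression was measured in 3 DKO and 3 SKO libraries of GV oocytes, each of 15 oocytes of its own mouse, grouped by genotype label. RNA was amplified (Ovation) before library preparation, per the labels' protocols. The submitters' processing notes name STAR 2.5.0a and GRCm38/mm10; for the counter, annotation, strand and multi-mapping rules, nothing is given in the sources used here. The authors deposited whole-number read counts per Entrez gene, not normalized, and a gene length column in bases; 0 columns of samples were left unused. Of 24421 identifiers, 24387 matched RefSeq GRCm38, leaving 34 that made up no more than 0.087% of a library.

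Counts were tested in R 4.3.3 with edgeR 4.0.16: filterByExpr (minimum count 10, minimum total 15, which came to 0.413 CPM in 3 libraries), TMM, and glmQLFTest, the quasi-likelihood test, two-sided; p values were adjusted by Benjamini-Hochberg across the 14845 genes kept. Adjusted p under 0.05 made a call. Standard errors were taken from the F statistic. Per-kilobase levels use the deposited gene lengths. The code was tested on simulated data. Alternatives were other scalings, count filters, DESeq2 1.42.0, a replicate block and leaving out each library.

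Members, lists and naming rules were chosen with earlier results of these data known. All tested keratins are named; those called, and the 8 with the highest level, get full values, as do keratins under the filter with at least 10 counts; of each partner list up to 4 called genes, and of each marker list the 3 most abundant, are given, and further genes were chosen after their values were seen.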

Additional observations from a re-analysis of the deposited data

How the results depend on the processing

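Under 12 alternatives, 8 of the 9 called keratins kept their call in each, and Krt72 lost it in 4, all leaving out 1 library. Summed keratin CPM had a log2 ratio of 1.24, which was 1.77 without Krt84. Krt84 had the highest mean level over all libraries and averaged higher in SKO oocytes. Leaving out each library gave 1.10 to 1.36 for that ratio, 8 to 10 keratins called higher and 0 to 1 lower, 16 to 20 partner genes higher and 1 to 4 lower, and 1952 to 2704 genes higher and 434 to 1501 lower in the whole table. Genes called lower were 516, 464 and 434 without SKO 1, 2 and 3. Scaling by library totals alone moved the median of all genes to 0.20 and left 596 genes lower, with 9 keratins still higher. DESeq2 called 1 keratin lower, Krt12. Without a filter, 11 keratins were called higher, 4 of them epidermal and mucosal. Of the uncalled keratins, Krt10 (0.05) turned to -0.25 with the replicate block and to -0.51, -0.06 and -0.0047 without DKO 1, DKO 2 and SKO 1, and ranged from -0.51 to 0.52 over single libraries left out. Without DKO 3, Krt20 turned to -0.80 and Krt23 to -0.24, in ranges of -0.80 to 1.10 and -0.24 to 0.87. The cause was not tested.

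With the replicate block, 9 keratins were called higher, the same 9 genes, beside 2651 genes higher and 1364 lower in all. Same-numbered DKO and SKO libraries correlated at 0.139, 0.077 and 0.048 in their deviations, each library best with its own number, which is a hint from the data and not the design; the labels give no shared litter or day. Depth limits the 34 keratins under the filter, whose absence cannot be told from low expression.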
